A study of Arabidopsis thaliana with 30 samples.

Results

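The genes that give floral organs their identity were followed in 30 RNA-seq libraries from plants labelled as leaf at bolting. The group holds 10 of the 34262 gene identifiers in the count tables and was taken by identifier: the 4 SEPALLATA genes SEP1, SEP2, SEP3 and SEP4, the petal and stamen genes AP3 and PI, the stamen and carpel gene AG, its relatives SHP1 and SHP2, and the carpel gene CRC. Every library was from the Col-0 accession of Arabidopsis thaliana grown at 22 °C by day and 20 °C by night without heat. There were 10 groups of 3 libraries, described in the labels as full-sib replicates. At 12 h of light per day, wild type, cue1 and hda6 formed 1 set, and sal1 with a wild type of its own formed another. At 16 h, wild type, cue1 and msh1 formed the third set, and hda6 with its own wild type the last. The mutants are named for CUE1, which brings phosphoenolpyruvate into plastids, HDA6, a histone deacetylase, SAL1, a phosphatase of plastids and mitochondria, and MSH1, a MutS homologue targeted to the same organelles. The sources used here name no alleles. Each mutant was compared with the wild type of its own set, and p-values measure the spread between these sibling samples.

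As background, flower development follows a combinatorial code. Transcription factors with a MADS domain form complexes in which AP3 with PI (the B class) and AG (the C class) are joined by SEPALLATA proteins (the E class), and the combination sets whether a sepal, petal, stamen or carpel forms. CRC is a YABBY transcription factor of carpels and nectaries, and SHP1 and SHP2 act with AG in carpels and fruit. In leaves most of these genes are held silent, in part by Polycomb complexes that contain the methyltransferase CLF, and loss of CLF is known to release AG and SEP3 in leaves.

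Marker lists were read beside the tissue label. The 5 leaf markers, genes of the photosynthetic apparatus, were detected in every library, with summed levels of 11994 to 63058 CPM (counts scaled by library size). Genes of photosynthesis cannot tell leaf from other green tissue, so their detection does not test the label. The series text speaks of aboveground tissue at bolting or flowering, and transcripts of anthers and of the shoot meristem were present in some libraries, as given below. Libraries of the first 12 h set, which holds hda6 and cue1, had 32306939 to 33747006 gene counts, and those of the other 3 sets 14417942 to 22334743. Reads assigned to no gene were 2.58% to 5.78% of the total in the former and 47.95% to 49.6% in the latter, so levels are compared within a set only. CUE1 transcript was low in both cue1 groups, at 10.9 ± 2.63 and 15.4 ± 0.543 CPM against 126 ± 2.71 and 206 ± 7.46 in their wild types (SD, n = 3). HDA6 was at 24.1 ± 0.65 against 27.3 ± 0.57 CPM at 12 h and at 15.03 ± 1.005 against 23.58 ± 2.64 at 16 h. SAL1 and MSH1 were higher, not lower, in the libraries labelled with their names (245 ± 39.6 against 78.1 ± 9.29 CPM, and 26.3 ± 2.03 against 9.83 ± 0.409), so directions for those 2 groups rest on the labels.

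Upstream sequences are shown for the 4 members whose counts stood furthest above wild type in the libraries labelled msh1, SEP3, CRC, AP3 and SEP2. They are the 250 bases before each gene's start in the RefSeq annotation of TAIR10.1, read 5′ to 3′ on the gene's own strand, which is the minus strand for all 4. They lie at chr3:467152-467401 (SEP2), chr1:8596124-8596373 (SEP3), chr3:20121315-20121564 (AP3) and chr1:26009142-26009391 (CRC), and none overlaps an annotated exon.
SEP2 upstream: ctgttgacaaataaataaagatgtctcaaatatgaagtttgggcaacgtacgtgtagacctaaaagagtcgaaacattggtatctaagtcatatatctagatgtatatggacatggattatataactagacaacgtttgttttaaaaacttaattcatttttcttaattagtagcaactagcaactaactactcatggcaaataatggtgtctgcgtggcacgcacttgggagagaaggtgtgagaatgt
SEP3 upstream: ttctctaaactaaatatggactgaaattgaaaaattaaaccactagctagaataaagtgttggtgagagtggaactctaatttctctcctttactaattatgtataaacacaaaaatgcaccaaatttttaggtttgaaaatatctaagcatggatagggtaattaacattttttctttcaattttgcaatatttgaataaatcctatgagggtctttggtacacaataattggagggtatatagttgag
AP3 upstream: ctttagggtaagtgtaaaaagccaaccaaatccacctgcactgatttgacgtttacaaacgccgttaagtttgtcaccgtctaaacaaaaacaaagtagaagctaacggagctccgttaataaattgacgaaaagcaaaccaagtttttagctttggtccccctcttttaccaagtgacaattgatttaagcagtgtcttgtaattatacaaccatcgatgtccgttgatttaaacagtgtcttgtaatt
CRC upstream: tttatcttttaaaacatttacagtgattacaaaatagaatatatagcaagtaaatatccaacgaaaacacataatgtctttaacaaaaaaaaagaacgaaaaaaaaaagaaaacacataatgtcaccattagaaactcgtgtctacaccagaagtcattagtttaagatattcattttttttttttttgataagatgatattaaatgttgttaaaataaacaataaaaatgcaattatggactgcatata
The CArG box, a motif of 10 bases to which MADS-domain proteins bind, was searched in its strict form on both strands. It was absent from these windows of all 10 members, and 2.52% of 27443 protein-coding genes had one. CCANTG, the core that LFY is known to bind, was found in the windows of SEP2 and SEP4 (2 of 10 members) and in 20.8% of all windows. No match says only that these letters are not in the window.

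The strict CArG box was found farther away for 3 members outside exons. Each is shown in capitals with its neighbouring bases, since these are among the places where the search found letters that the proteins of this family are known to bind. SEP2 also had a match within the gene, at base 396 from its start, in a stretch that overlaps an exon and is not shown. Of genes about as long as SEP2, 16.2% held a strict box. The SEP3 site lies within the gene, 999 bases after its start (chr1:8595081-8595160, minus strand). The AG site also lies within the gene, 3676 bases after its start (chr4:10386496-10386575, plus strand), and the SHP2 site begins at base -267 from the start (chr2:17819812-17819891, plus strand).
SEP3 site: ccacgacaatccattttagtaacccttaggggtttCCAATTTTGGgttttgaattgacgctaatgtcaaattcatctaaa
AG site: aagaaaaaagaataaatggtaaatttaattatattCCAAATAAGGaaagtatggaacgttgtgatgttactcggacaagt
SHP2 site: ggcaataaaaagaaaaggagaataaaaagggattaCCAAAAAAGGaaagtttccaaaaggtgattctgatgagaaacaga
A strict box lay within 13.9% of genes about as long as SEP3 and 30.2% of those about as long as AG, and in the 1000 bases upstream of 7.21% of genes and of 1 of the 10 members. These matches are descriptions of sequence, and no binding was measured.

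Most members were close to the limit of detection. SEP4 (AT2G03710, chr2:1129229-1131838, plus strand), a SEPALLATA gene, was the exception, with 130 to 498 counts in each of the 30 libraries. Scaled by exon length, SEP4 stood at 5.58 to 7.57 RPKM (CPM per kilobase of exon) in the 4 wild types. The wild-type means of the other members lay between 0.0161 and 0.608 RPKM, apart from SHP1, which reached 2.30. AG had 7 to 40 counts per library and was detected in all 30, and SEP1 had 2 to 29. SHP2 never exceeded 8 counts, CRC was at 0 in 9 libraries and SHP2 at 0 in 6. In a bulk sample fewer cells of a type and less RNA per cell cannot be told apart.

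**Figure D1:**
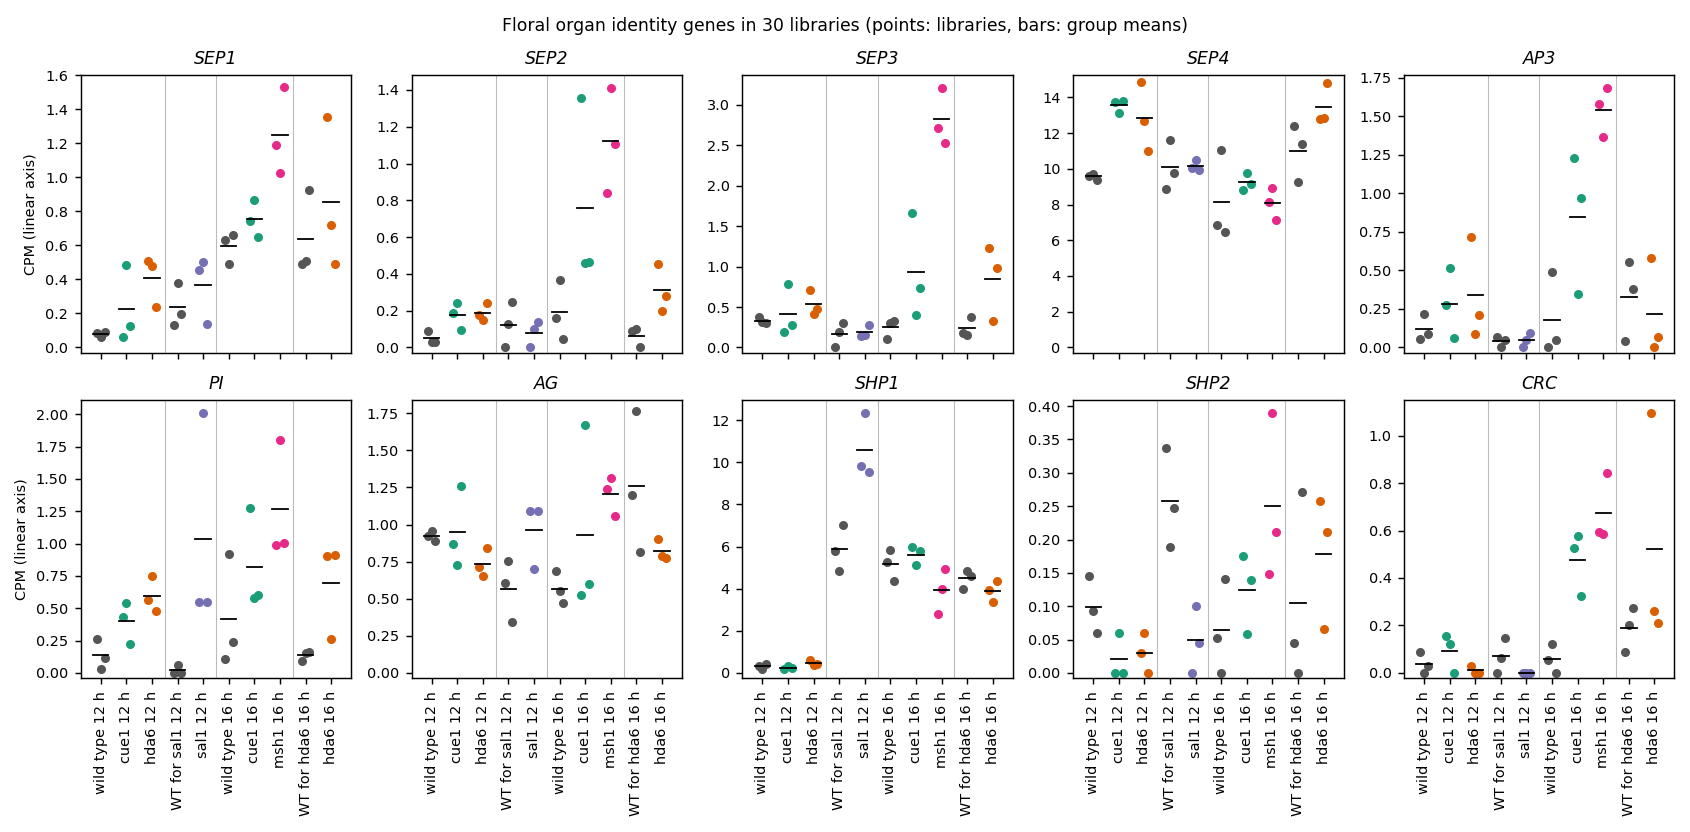
Each panel plots 1 member in 30 libraries as CPM on a linear axis, with points for libraries, bars for group means and vertical lines between the 4 sets. SEP4 lies above 6 CPM in every library, whereas SEP3, AP3 and CRC are near 0 in the wild types and highest on average in the group labelled msh1.

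Across the 6 comparisons, edgeR's quasi-likelihood test called 11 differences at an adjusted p under 0.05, all of them higher in the mutant, in 8 of the 10 members. AG and SHP2 were called in none. Genes entered the test only with enough counts in at least 3 libraries of their set (a minimum count of 10, scaled by depth). These libraries could belong to different groups. A member near 0 in wild type therefore passed only where libraries of other groups were high. Members below the filter could be called in neither direction. No support is taken from the share called among those tested or from the shared direction of the calls.
In the libraries labelled msh1, SEP1, SEP2, SEP3, AP3 and CRC rose (5 called of 9 tested), where 17.4% of all tested genes were called higher. In cue1 at 16 h CRC alone was called, 1 of 9 tested, against 3.34% of genes. In hda6 at 12 h SEP1, SEP4 and PI were called, 3 of 6, against 22.4%, and in the libraries labelled sal1 PI and SHP1, 2 of 4, against 25%. In cue1 at 12 h 0 of 6 tested members were called, where 1.85% of genes were called in either direction. SEP4 and PI had an unadjusted p under 0.05 there, and DESeq2 called 1. In hda6 at 16 h 0 of 4 were called, against 8.02%, with SEP4 at an unadjusted p under 0.05 and 0 calls by DESeq2.

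**Figure D2:**
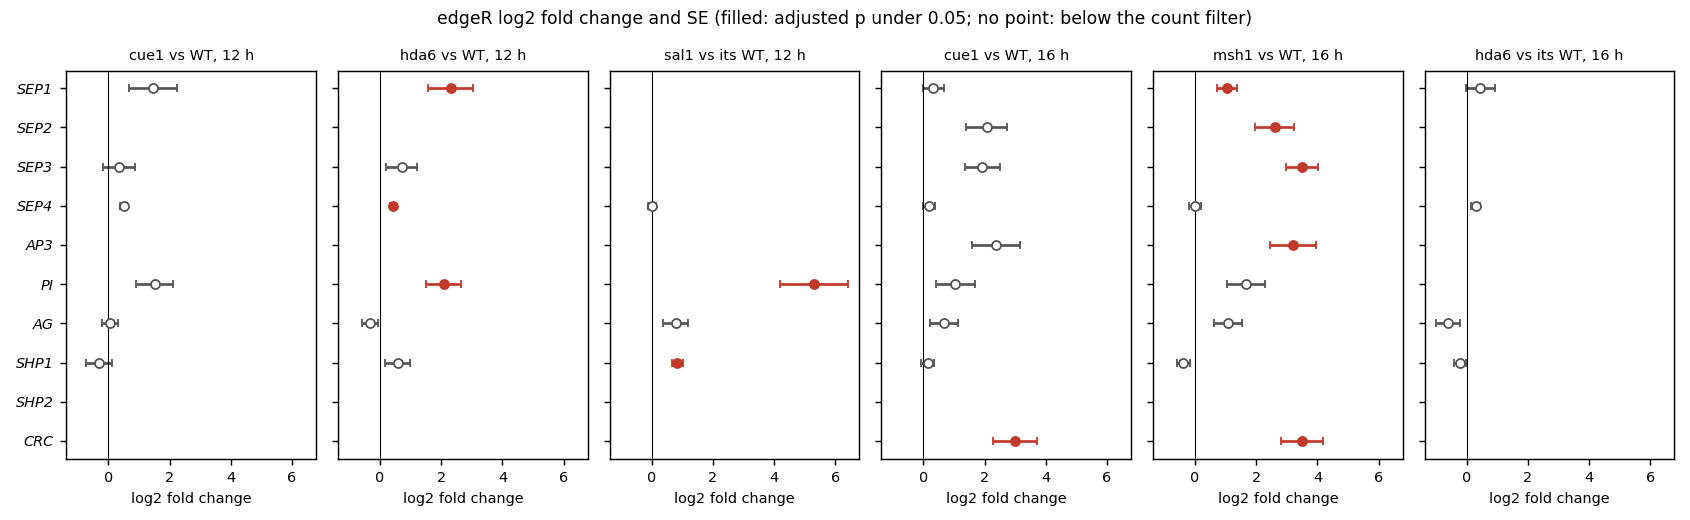
Log2 fold change of each member (mutant over wild type, x axis) in the 6 comparisons, with its SE as bars; filled points had an edgeR adjusted p under 0.05 and members with no point were below the count filter. The 11 filled points all lie to the right of 0, and 5 of them are in the comparison labelled msh1. A member without a point could be called in neither direction.

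SEP3 (AT1G24260, chr1:8593536-8596123, minus strand) encodes the SEPALLATA protein that joins B- and C-class proteins in complexes. It had 55, 66 and 48 counts in the libraries labelled msh1 and 2, 5 and 7 in wild type of that set. The groups lay far apart, and SEP3 rose from 0.247 ± 0.123 to 2.82 ± 0.353 CPM (SD, n = 3; log2 fold change 3.48, SE 0.52, edgeR adjusted p = 0.000479). The call was kept in every refit that left out 1 library (adjusted p 0.00154 to 0.00320). In cue1 of the same set SEP3 had 38, 7 and 16 counts. The lowest of these equalled the highest wild-type count, although the groups did not overlap in CPM. The log2 fold change of 1.93 (SE 0.57) did not pass (edgeR adjusted p = 0.0661), though DESeq2 called it (0.0183), as did edgeR without cue1 replicate 2 (0.0227).

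At 12 h SEP3 had 13, 10 and 10 counts in wild type and 24, 14 and 16 in hda6. These groups did not overlap but the difference did not pass (log2 0.71, SE 0.51, edgeR adjusted p = 0.285). In cue1 at 12 h the counts of 6, 26 and 9 spanned those of wild type. The 16 h hda6 libraries had 19, 5 and 14 counts against 4, 3 and 7 in its wild type, below the count filter. The summed counts of 38 and 14 gave a ratio of 3.52 (exact 95% interval 1.86 to 7.02, which covers counting error only), although 1 hda6 library lay within the wild-type range. The libraries labelled sal1 (3, 3 and 6 counts) and their wild type (0, 3 and 6) overlapped.

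SEP2 (AT3G02310, chr3:464279-467151, minus strand), a close paralogue of SEP1 that is known to act redundantly with it, had 17, 29 and 21 counts in the libraries labelled msh1 and 3, 6 and 1 in wild type. It rose by a log2 of 2.60 (SE 0.65, edgeR adjusted p = 0.00967), and by 3.40 without wild-type replicate 2. The 16 h cue1 libraries had 31, 8 and 10 counts, all above wild type, with a log2 fold change of 2.07 (SE 0.67) that did not pass (edgeR adjusted p = 0.0908), while DESeq2 called it (0.0474). SEP2 was below the filter elsewhere, and without the filter edgeR called it in hda6 at 12 h (log2 1.85, SE 0.63, adjusted p = 0.0453). Its counts were 3, 1 and 1 in the 12 h wild type, 6, 8 and 3 in cue1 and 6, 5 and 8 in hda6. Both mutants lay above wild type in CPM with no overlap, which 12.4% and 28.7% of tested genes also did in that direction. In hda6 at 16 h SEP2 had 7, 3 and 4 counts against 2, 2 and 0, again without overlap (13.5% of tested genes). SEP2 itself was not among the tested genes in these 3 comparisons. The libraries labelled sal1 (0, 2 and 3) overlapped their wild type (0, 2 and 5).

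SEP1 (AT5G15800, chr5:5151334-5154253, minus strand), the other SEPALLATA gene of this pair, had 24, 21 and 29 counts in the libraries labelled msh1 and 12, 8 and 14 in wild type. From 0.593 ± 0.0906 CPM it rose to 1.25 ± 0.258 (log2 1.05, SE 0.32, edgeR adjusted p = 0.0270). This call was lost without any 1 of wild-type replicates 1, 2 and 3 or msh1 replicates 1 and 3 (adjusted p 0.0504 to 0.111) and by DESeq2 (0.0510). At 12 h SEP1 had 3, 2 and 3 counts in wild type and 17, 16 and 8 in hda6, a log2 of 2.31 (SE 0.73, edgeR adjusted p = 0.0313) that lost its call in 5 of the 6 refits without 1 library (0.0722 to 0.0852). With only the hda6 and wild-type groups in that fit, SEP1 fell below the count filter and was not tested. In cue1 at 12 h replicate 2 had 16 counts and the others 2 and 4. At 16 h cue1 had 17, 15 and 14 counts, close to wild type (log2 0.32, SE 0.34, edgeR adjusted p = 0.617), and hda6 had 21, 11 and 7 against 11, 10 and 17. The libraries labelled sal1 had 10, 10 and 3 counts and their wild type 2, 6 and 4. Exons of genes on the other strand overlap a part of 0.358 of the exonic bases of SEP1, so its counts are uncertain.

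SEP4, a SEPALLATA gene known to be transcribed in leaves as well as flowers, moved in another way. At 12 h it had 332, 315 and 317 counts in wild type and 498, 425 and 367 in hda6, and its level rose to 12.8 ± 1.93 CPM from 9.57 ± 0.167 (log2 0.42, SE 0.11, edgeR adjusted p = 0.0121). In cue1 it had 444, 435 and 437 counts. These libraries lay closer together than those of hda6, at 13.5 ± 0.359 CPM, and the log2 fold change of 0.50 (SE 0.11) was just short of the threshold (edgeR adjusted p = 0.0527), and past it by DESeq2 (0.00508) or with only the 2 groups in the fit (0.0434). SEP4 in hda6 at 16 h stood at 13.5 ± 1.17 against 11.02 ± 1.61 CPM without overlap (log2 0.29, SE 0.14, edgeR adjusted p = 0.221). In the libraries labelled msh1, where the other SEPALLATA genes rose, it stood at 8.07 ± 0.902 against 8.12 ± 2.57 CPM. In cue1 at 16 h and in the libraries labelled sal1 its log2 fold changes were 0.19 (SE 0.19) and 0.01 (SE 0.14), with edgeR adjusted p = 0.595 and 0.965.

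AP3 (AT3G54340, chr3:20119140-20121314, minus strand) and PI (AT5G20240, chr5:6828904-6831515, plus strand) encode both partners of the B-class dimer of petals and stamens. AP3 had 32, 28 and 32 counts in the libraries labelled msh1 and 0, 8 and 1 in wild type. Its level rose to 1.55 ± 0.165 CPM from 0.179 ± 0.270 (log2 3.20, SE 0.75, edgeR adjusted p = 0.00707). Wild-type replicate 2 held 8 of the 9 wild-type counts, and the log2 fold change was 5.64 without it and 2.61 without wild-type replicate 1. AP3 in cue1 at 16 h had 28, 6 and 21 counts, of which 1 library lay within the wild-type range. The log2 fold change of 2.37 (SE 0.79) did not pass (edgeR adjusted p = 0.0991) but did so by DESeq2 (0.0281) and without wild-type replicate 2 (0.0243).

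AP3 varied within other groups. It had 24, 3 and 7 counts in hda6 and 9, 17 and 2 in cue1 at 12 h, against 2, 7 and 3 in wild type. At 16 h it had 9, 0 and 1 counts in hda6 and 1, 11 and 7 in its wild type, and it stayed at 0 to 2 counts in the libraries labelled sal1 and in their wild type. The groups overlapped in each of these comparisons.

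PI had 12, 40 and 12 counts in the libraries labelled sal1 and 0, 1 and 0 in their wild type. It rose there (log2 5.30, SE 1.12, edgeR adjusted p = 0.00636), and the summed counts of 64 and 1 gave a ratio of 53.2 (exact 95% interval 9.21 to 2130, counting error only). The log2 fold change was 4.40 without sal1 replicate 2 and 7.35 without wild-type replicate 2, the library with the 1 count, and the call was kept in both. AP3, the partner of PI, had 0, 1 and 2 counts in the same libraries labelled sal1. PI and SHP1 were the members above wild type without overlap there, as were 30.6% of tested genes.

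At 12 h PI also rose in hda6, with 19, 25 and 16 counts against 9, 1 and 4 (log2 2.08, SE 0.57, edgeR adjusted p = 0.0176). The call was lost without wild-type replicate 3 (0.0638) or hda6 replicate 2 (0.0609), and the log2 fold change was 2.92 without wild-type replicate 1. In cue1 at 12 h PI had 14, 18 and 7 counts, and 1 of these libraries lay within the wild-type range (log2 1.51, SE 0.60, edgeR adjusted p = 0.251). In the libraries labelled msh1 PI had 20, 37 and 19 counts against 2, 15 and 5, without overlap. The log2 fold change of 1.65 (SE 0.62) did not pass (edgeR adjusted p = 0.0614) but did so by DESeq2 (0.0417) and without wild-type replicate 2 (2.82, adjusted p = 0.0103). In cue1 of that set PI had 29, 10 and 13 counts and overlapped wild type (log2 1.04, SE 0.64, edgeR adjusted p = 0.365). PI in hda6 at 16 h had 14, 4 and 13 counts against 2, 3 and 3, below the filter but without overlap. Without a filter on low counts edgeR called PI in that comparison (adjusted p = 0.0417).

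AG (AT4G18960, chr4:10382856-10388539, plus strand), the C-class gene of stamens and carpels, was detected in each library but was called in none of the comparisons. In the libraries labelled msh1 it had 25, 27 and 20 counts against 13, 9 and 10, without overlap (log2 1.08, SE 0.46, edgeR adjusted p = 0.0912), and it was called with only the 2 groups in the fit (0.0271). Its groups overlapped in cue1 at 16 h (12, 29 and 13 counts) and in the libraries labelled sal1 (24, 14 and 24 against 9, 12 and 7). At 12 h it had 32, 31 and 30 counts in wild type, 28, 24 and 40 in cue1 and 24, 22 and 28 in hda6. The hda6 libraries lay below wild type in CPM without overlap, as did 25.2% of genes, and the log2 fold change was -0.32 (SE 0.26, edgeR adjusted p = 0.345). AG in hda6 at 16 h had 14, 12 and 11 counts against 27, 35 and 15 (log2 -0.62, SE 0.39, edgeR adjusted p = 0.378).

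SHP1 (AT3G58780, chr3:21738160-21742517, plus strand), a gene of the valve margin of the fruit, had 216, 246 and 210 counts in the libraries labelled sal1 and 86, 77 and 142 in their wild type. Its level rose there to 10.6 ± 1.55 CPM from 5.88 ± 1.09 (log2 0.84, SE 0.18, edgeR adjusted p = 0.00735). Its 3′ end overlaps GAUT15, a glycosyltransferase gene on the other strand, and exons of other-strand genes cover a part of 0.184 of its exonic bases. SHP1 had 6 to 20 counts in each library of the first 12 h set, and 51 to 246 in the other 3 sets. Per 100 counts of GAUT15 it had 0.793 to 2.56 in the former set and 14.97 to 25.6 in the latter. The sets with few SHP1 counts and with few reads outside genes were thus the same one, and whether reads of GAUT15 enter the SHP1 count was not tested. GAUT15 itself had 938, 1063 and 1013 counts in the libraries labelled sal1 and 487, 500 and 772 in their wild type. SHP1 is therefore uncertain. In the other 5 comparisons SHP1 lay between log2 -0.39 (SE 0.21, edgeR adjusted p = 0.175, msh1) and 0.57 (SE 0.40, edgeR adjusted p = 0.272, hda6 at 12 h).

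**Figure D3:**
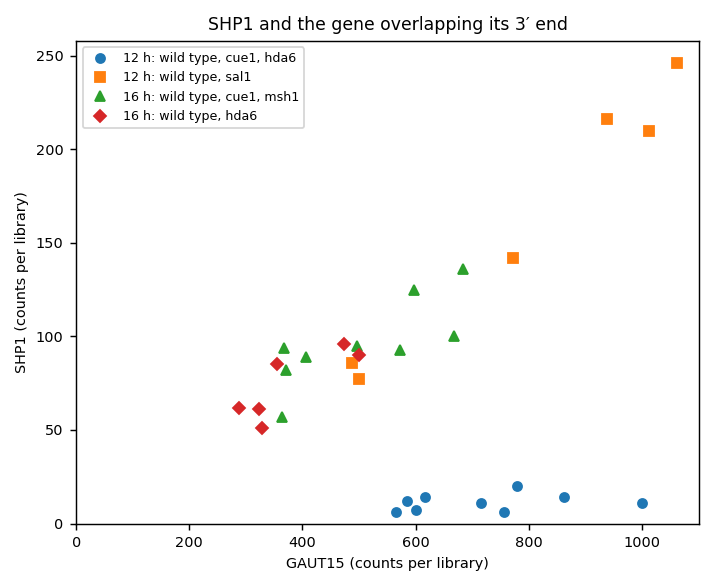
Counts of SHP1 (y axis) against counts of GAUT15 (x axis) in each of the 30 libraries, with a symbol for each set. The first 12 h set (wild type, cue1 and hda6) lies at 6 to 20 SHP1 counts with 566 to 1001 GAUT15 counts, and in the other 3 sets SHP1 counts lie between 14.97 and 25.6 per 100 GAUT15 counts.

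SHP2 (AT2G42830, chr2:17820114-17824013, plus strand), the paralogue of SHP1, was below the filter in every comparison, with 0 to 8 counts. In the libraries labelled msh1 it had 3, 8 and 4 counts against 1, 0 and 3, and in those labelled sal1 0, 2 and 1 against 5, 3 and 5. Neither pair of groups overlapped in CPM. Of tested genes, which leave out SHP2, 24.9% were higher and 27.8% lower without overlap in those comparisons. The summed counts gave ratios of 3.84 (exact 95% interval 1.22 to 15.9) and 0.192 (0.0350 to 0.698), for counting error only. A gene on the other strand overlaps a part of 0.567 of its exonic bases, so SHP2 is uncertain too.

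CRC (AT1G69180, chr1:26007350-26009141, minus strand) was the member called in both mutants of the 16 h set with cue1. It had 12, 12 and 16 counts in the libraries labelled msh1, 12, 10 and 7 in cue1 and 1, 2 and 0 in wild type. It rose by a log2 of 3.51 in msh1 (SE 0.68, edgeR adjusted p = 0.00246) and of 3.00 in cue1 (SE 0.72, edgeR adjusted p = 0.0307). With 3 wild-type counts in all, the ratio of summed counts was 13.7 (exact 95% interval 4.35 to 69.0) for msh1 and 9.56 (2.96 to 49.0) for cue1. These 2 comparisons share their wild-type libraries. The cue1 call was lost without any 1 of the 6 libraries (edgeR adjusted p 0.0512 to 0.0939), and the msh1 call in none of these refits (0.00502 to 0.0135). With only the cue1 and wild-type groups in the fit, CRC fell below the count filter and was not tested. Without wild-type replicate 2 the log2 fold changes were 4.44 and 3.93, and without replicate 3, the library with 0 counts, 2.89 and 2.38.

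Elsewhere CRC was below the filter. In hda6 at 16 h it had 17, 4 and 3 counts against 2, 4 and 5, so that 1 library carried the difference. At 12 h it had 0 to 5 counts in cue1, 0 or 1 in hda6 and 0 to 3 in wild type. It was at 0 in the 3 libraries labelled sal1 and at 0, 1 and 3 in their wild type.

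Seen by comparison, 8 of 10 members lay above wild type without overlap in the libraries labelled msh1, all but SEP4 and SHP1, where 24.9% of tested genes did. In cue1 at 16 h these were SEP2, SEP3 and CRC (14.1% of genes). In hda6 they were SEP1, SEP2, SEP3, SEP4 and PI at 12 h (28.7%) and SEP2, SEP4 and PI at 16 h (13.5%), and in cue1 at 12 h SEP2 and SEP4 (12.4%). These shares cover only genes that passed the count filter. SHP2 in msh1, SEP2 in hda6 and in cue1 at 12 h, and PI in hda6 at 16 h did not pass it. No share was computed for genes below the filter, so for these members the shares are not like for like. Whether a mutant's effect differed between day lengths was tested as an interaction, in which day length and set cannot be told apart. For cue1 0 of 8 tested members were called, where 0.794% of genes were, with 0 at an unadjusted p under 0.05 and 0 by DESeq2. For hda6 0 of 7 were called, where 25.8% of genes were, and DESeq2 called 0. SEP1 was the 1 member with an unadjusted p under 0.05 (log2 difference -1.85, SE 0.73, unadjusted p = 0.0248, edgeR adjusted p = 0.0780), and it was called without hda6 replicate 1 of the 16 h set (-2.34, adjusted p = 0.0419).

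Markers of other tissues were counted in the same libraries. MS2, A9 and ATA7, genes of the anther tapetum picked from the flower list after their values were seen, summed to 195, 31 and 135 counts in cue1 at 16 h and 20, 232 and 139 in the libraries labelled msh1. In wild type of that set they summed to 0, 4 and 0. The library labelled msh1 replicate 1, with 20 counts of these 3 genes, had 55 counts of SEP3, 32 of AP3 and 12 of CRC, where the other two had 66 and 48, 28 and 32, and 12 and 16. In hda6 at 12 h, replicate 1 alone had these transcripts (73 counts) and was the library with 24 counts of AP3. In cue1 at 12 h, replicate 2, with 11 counts, was the library with most SEP1, SEP3 and AP3 counts. In hda6 at 16 h replicate 3 had 43 counts and replicates 1 and 2 had 2 and 0, while SEP3 and CRC were highest in replicate 1.

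**Figure D4:**
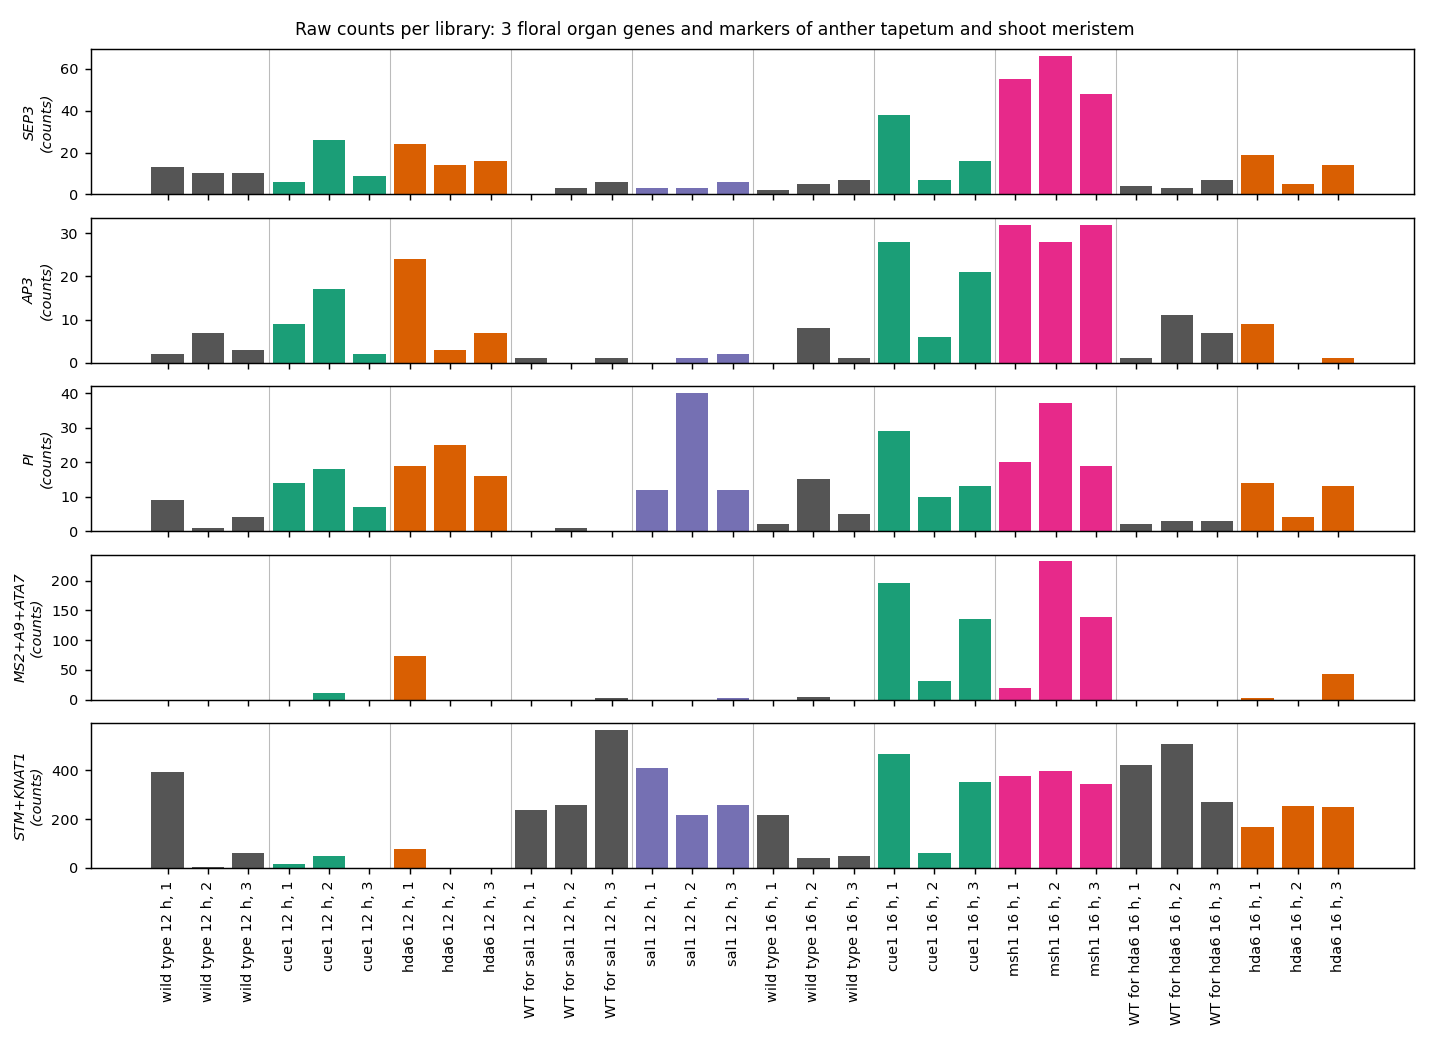
Bars give raw counts in each of the 30 libraries for SEP3, AP3 and PI and for the summed tapetum genes MS2, A9 and ATA7 and meristem genes STM and KNAT1. The tapetum genes reach 20 to 232 counts in the libraries labelled msh1 and 31 to 195 in cue1 at 16 h, and stay at 0 to 4 in all wild-type libraries; STM and KNAT1 vary within groups.

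Of the whole list of 17 flower markers, 8 passed the count filter in the libraries labelled msh1 and 6 of them were called higher (AMS, MS2, A9, ATA7, LAP5 and LAP6), where 17.4% of all tested genes were. In those labelled sal1 4 of 6 tested were called higher (AMS, LAP5, AGP6 and BEL1), against 25%, and in cue1 at 16 h 2 of 8 (MS2 and A9), against 3.34%. As with the members, a marker near 0 in wild type passed the filter only where libraries of other groups were high. No support is therefore taken from the share called among those tested or from the direction of the calls. Of the 3 tested in cue1 at 12 h, the 3 in hda6 at 12 h and the 4 in hda6 at 16 h, 0 were called. There edgeR gave an unadjusted p under 0.05 to 0 of them in cue1 and hda6 at 12 h and to 2, MYB57 and BEL1, in hda6 at 16 h, both lower. The number detected per library was 9 to 11 in the 16 h wild type of the cue1 set, 11 to 13 in cue1 and 11 to 13 in msh1, with summed levels of 44.5 to 48.2, 57.3 to 67.5 and 47.6 to 64.0 CPM, mostly of BEL1, an ovule gene also expressed in leaves. At 12 h the counts detected were 4 to 6 in wild type, 6 to 9 in cue1 and 6 to 10 in hda6 (55.2 to 68.5, 63.9 to 78.3 and 68.1 to 83.5 CPM). In the sal1 set they were 8 in wild type and 9 to 10 in sal1 (54.7 to 65.9 and 73.4 to 78.1 CPM), and in the 16 h hda6 set 6 to 8 and 7 to 11 (34.3 to 39.1 and 31.9 to 33.3 CPM). The sesquiterpene synthase gene TPS21 of open flowers was at 0 in all 30 libraries, and the pollen genes VGD1 and PPME1 and the ovule gene INO never exceeded 2 counts. Other genes of the list were present in wild type too. LAP6 had 61 to 257 counts in each of the 30 libraries, and AMS and LAP5 were at 0 in only 2 and 3 libraries.

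LAP5, a polyketide synthase of the tapetum, had 48, 57 and 82 counts in the libraries labelled sal1, against 0, 2 and 4, whereas MS2 had 0, 0 and 2 counts there. STM and KNAT1, homeobox genes of the shoot meristem and the young stem, summed to 0 to 566 counts per library. KNAT1 was called higher in msh1 (log2 1.84, SE 0.55, edgeR adjusted p = 0.0234), and 0 of the 4 meristem markers, of which 2 passed the filter in each comparison, were called in the other comparisons, with 1 at an unadjusted p under 0.05 in cue1 and hda6 at 16 h and in sal1. The summed meristem list ranged from 2.39 to 11.3 CPM in wild type, 18.4 to 19.5 in msh1 and 3.57 to 20.6 in cue1 at 16 h. It ranged from 0.0617 to 11.4 CPM in wild type, 0 to 1.48 in cue1 and 0.0298 to 2.27 in hda6 at 12 h, where PI and SEP1 were called in hda6. In the sal1 set it was 16.0 to 28.0 CPM in wild type and 10.9 to 18.6 in sal1, and in the 16 h hda6 set 14.6 to 25.8 and 10.8 to 17.5. Of 13 stem markers of secondary walls, 11 or 12 tested in each comparison, 1 was called higher and 2 lower in hda6 at 12 h, 2 lower in cue1 at 16 h (CESA4 and FLA12), 1 lower in sal1 and 0 elsewhere, with 0 at an unadjusted p under 0.05 there. Of the 5 leaf markers, 3 were called lower in cue1 at 16 h and 3 in msh1, 2 in hda6 at 12 h and 2 in sal1, and 0 in the others, where 2 in each had an unadjusted p under 0.05. Of all tested genes 19.6% were called lower in hda6 at 12 h, 21.3% in sal1, 16.0% in msh1 and 3.42% in cue1 at 16 h. The share called higher was 22.4% in hda6 at 12 h and 17.4% in msh1. In either direction it was 1.85% in cue1 at 12 h and 8.02% in hda6 at 16 h. The part of the marked tissues in the differences of the 10 genes was not tested.

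Other genes of the pathway were read from lists. Among 12 regulators of the floral meristem and the A class, FUL, a MADS-box gene of inflorescence and fruit, rose in hda6 at 12 h (5.42 ± 1.23 against 1.92 ± 0.575 CPM, edgeR adjusted p = 0.00258), in cue1 at 16 h (log2 1.07) and in msh1 (log2 1.32). FUL was also among the genes called in sal1, in a direction that is not given here. AP1, the MADS-box gene of sepals and petals, had 34, 67 and 30 counts in the libraries labelled msh1, 36, 13 and 22 in cue1 and 9, 8 and 2 in wild type. It rose in msh1 (log2 2.66, SE 0.53, edgeR adjusted p = 0.00273) and did not pass in cue1 (log2 1.71, edgeR adjusted p = 0.0907). LFY, which activates AP3 and AG in flowers, stayed at 0 to 14 counts in all libraries. UFO, an F-box cofactor of LFY known to activate AP3, rose in the libraries labelled sal1 to 0.788 ± 0.146 CPM from 0.0165 ± 0.0285 (log2 4.93, SE 0.73, edgeR adjusted p = 0.00135), where AP3 had 3 counts in all and PI 64.
Of this list 3 were called higher and 2 lower in msh1 (10 tested, against 17.4% and 16.0% of all genes), and 3 and 2 in sal1 (8 tested, 25% and 21.3%). In hda6 at 12 h it was 2 and 1 (7 tested, 22.4% and 19.6%), and in cue1 at 16 h 1 and 0 (10 tested, 3.34% and 3.42%). Of the 7 tested in cue1 at 12 h and the 8 in hda6 at 16 h 0 were called, and 1 and 3 had an unadjusted p under 0.05. Here too a gene near 0 in wild type passed the filter only where libraries of other groups were high.

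Of 14 Polycomb and other repressors, all of them tested in every comparison, 1 was called higher and 3 lower in hda6 at 12 h, 1 and 2 in sal1, 2 and 0 in msh1 and 0 elsewhere, with 0 or 1 at an unadjusted p under 0.05. Of all tested genes 22.4% were called higher and 19.6% lower in hda6 at 12 h, 25% and 21.3% in sal1. In msh1 the shares were 17.4% and 16.0%. In either direction they were 1.85% in cue1 at 12 h, 6.75% in cue1 at 16 h and 8.02% in hda6 at 16 h. The median log2 fold change of the list lay between -0.106 (sal1) and 0.122 (msh1 and cue1 at 16 h), and that of all tested genes between -0.0118 and 0.0235. CLF fell in hda6 at 12 h to 7.29 ± 0.827 CPM from 15.1 ± 2.19 (log2 -1.05, SE 0.13, edgeR adjusted p = 0.000562), where AG and SEP3, genes it is known to repress, had log2 fold changes of -0.32 and 0.71 that did not pass. In msh1, where SEP3 rose, CLF was higher than in wild type (21.5 ± 1.49 against 13.5 ± 2.73 CPM, log2 0.67, SE 0.13, edgeR adjusted p = 0.00237). Whether the level of CLF bears on AG or SEP3 in these libraries was not tested. BLR, a homeodomain repressor of AG, rose in hda6 at 12 h (log2 0.58), and the corepressor gene TPL fell in sal1 (log2 -0.57). Of 9 activators and RNA processing factors, ATX1, a histone methyltransferase that acts on AG, fell in hda6 at 12 h (log2 -0.79) and ULT1, a trithorax factor of AG, rose in msh1 (log2 0.88). ATX1 was also called lower in sal1, and ULT1 lower in hda6 at 12 h. In that list, with 8 tested in each comparison, 0 were called higher and 3 lower in hda6 at 12 h, 1 and 3 in sal1, 2 and 0 in msh1, and 0 in the other comparisons, with 0 to 2 at an unadjusted p under 0.05.

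Targets and partners that act in stamens and carpels gave mixed directions. GNC, a GATA factor that AP3 and PI are known to repress in flowers, fell in msh1 (19.8 ± 1.05 against 34.8 ± 1.09 CPM, log2 -0.82), in cue1 at 16 h (log2 -0.46) and in hda6 at 16 h (log2 -0.43). Its paralogue CGA1 rose in cue1 (log2 1.25) and hda6 (log2 1.77) at 12 h and fell in sal1 (log2 -2.03). NAP, a target of AP3 and PI in flowers that is also a leaf senescence gene, fell in msh1 (log2 -2.14), and SPT, a partner of carpel development, rose in hda6 at 12 h (log2 1.26) and 16 h (log2 1.46). SPT was also called higher in msh1, and GNC lower in sal1. Both GNC and NAP were among the genes called in hda6 at 12 h, where 4 of the list were higher and 1 lower, so not both of them fell there. Of the 16 genes, 4 were called higher and 1 lower in hda6 at 12 h (6 tested), 1 and 3 in sal1 (8 tested), 1 and 2 in msh1 (8 tested), 1 and 1 in hda6 at 16 h (7 tested), 1 and 0 in cue1 at 12 h (6 tested) and 0 and 1 in cue1 at 16 h (8 tested). The shares of all tested genes, higher and lower, were 22.4% and 19.6%, 25% and 21.3%, and 17.4% and 16.0% in the first 3 of these. In the last 3 they were 4.49% and 3.52%, 1.3% and 0.542%, and 3.34% and 3.42%. The 5 other floral MADS-box genes, AGL6 among them, were at 0 to 23 counts and none was called or had an unadjusted p under 0.05; only AGL6 passed the filter, in the 16 h set with cue1.

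Over the 30 libraries the level of CRC (log2 CPM) ran most like that of AP1, with a Pearson correlation of 0.902 among 22919 genes compared, and of 0.758 to 0.884 within the 4 sets of 6 or 9 libraries. SEP2 ran most like ACOS5 (0.845) and MEE48 (0.845), which within the sets gave 0.133 to 0.931 and 0.0839 to 0.868. SEP3 ran most like MEE48 (0.838) and AT2G16210 (0.835), with -0.0119 to 0.917 and 0.373 to 0.929 within sets, and then like SEP2 (0.824, 0.506 to 0.853 within sets). AP3 came closest to AT5G52160 (0.815, 0.364 to 0.876 within sets) and ACOS5 (0.809, 0.153 to 0.934), a gene of pollen wall synthesis in the tapetum. PI came closest to ATA1 (0.762, 0.290 to 0.923 within sets), SEP1 to AAO2 (0.787, 0.290 to 0.862), SEP4 to ACDO1 (0.794, 0.554 to 0.785) and AG to AT3G42150 (0.615, -0.243 to 0.962). SHP1 reached 0.987 with AT3G55840, with 0.587 to 0.830 within sets, and its level separates the sets. Of the pairs named, CRC with AP1, SEP3 with SEP2, SEP4 with ACDO1 and SHP1 with AT3G55840 stayed above 0.5 in each set, and the others did not. These are descriptions over libraries that share set, depth and sibling plants.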

How the data were processed

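RNA from 30 samples labelled as leaf at bolting was sequenced as paired reads of 150 bases. Per the submitters' processing notes, the authors used Trim Galore 0.6.6, cutadapt 2.8, STAR 2.7.10a and the TAIR10 build. The deposited files hold whole-number counts of reads per gene, 1 file per sample. No source used here gives the counting tool or its strand setting. The 5 totals that name no gene were left out. Each set was fitted apart in R 4.3.3 with edgeR 4.0.16 (filterByExpr with a minimum count of 10, TMM factors, quasi-likelihood F test, Benjamini-Hochberg adjustment over all tested genes, threshold 0.05). CPM used TMM-scaled library sizes, and RPKM the union of a gene's exons in RefSeq TAIR10.1, where all 10 members were found by identifier. Ratios of summed counts carry exact binomial 95% intervals. Intervals cover counting error only. Depth is given as ranges, and it differed between groups of a set. Gene counts were 14417942 to 15907444 in hda6 at 16 h against 18488222 to 22334743 in its wild type. In sal1 they were 20139302 to 21241223 against 15632452 to 19976573 in its wild type. Raw counts of these groups are therefore not on an equal scale.

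The 10 members and 9 further lists were chosen with earlier results of these data known. Genes named from the lists were taken from the 2 with the smallest adjusted p among those called in a comparison, and not all of these are named. Those left out include ETT, higher in sal1 (log2 0.94), and AGL24 and SVP, lower in sal1 (log2 -1.03) and msh1 (log2 -0.53). AP1, LFY and the markers named beyond that rule were chosen after their values were seen. Calls of FUL, ATX1, ULT1, SPT, GNC and NAP outside the rule are also given. For likeness, the 3 genes with the highest correlation were taken for members with at least 10 counts in at least 3 libraries, of which some are named here. Alternatives were DESeq2 1.42.0, its size factors, no filter, only the groups compared, a replicate block and leaving out each library. Same-numbered libraries had residual correlations of -0.393 to 0.152, with 6 of 24 pairs over 0.1, so the numbers were not taken to pair samples.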

Additional observations from a re-analysis of the deposited data

How the results depend on the processing

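The counts of called members kept within 1.5 times for the libraries labelled sal1 and msh1 and for hda6 at 12 h under each alternative that kept all libraries. In cue1 at 12 h the count went from 0 to 1 (SEP4) by DESeq2 and with only the groups compared. In cue1 at 16 h it went from 1 to 4 by DESeq2, and in hda6 at 16 h from 0 to 1 (PI) without the filter; the cause was not tested. With only the groups compared it was 0 in cue1 at 16 h, where 5 members instead of 9 passed the filter and CRC was among those not tested. Without the filter the hda6 count at 12 h was 4, with SEP2 added. With only the groups compared the hda6 count at 12 h was 2 of 5 tested, and SEP1 was not tested. With 1 library left out the counts were 0 in cue1 at 12 h, 1 to 3 in hda6 at 12 h, 2 in sal1, 0 to 1 in cue1 at 16 h, 4 to 5 in msh1, 0 to 2 in hda6 at 16 h, 0 for the cue1 interaction and 0 to 1 for the hda6 interaction. The hda6 count at 16 h was 2 without hda6 replicate 2, and the hda6 count at 12 h was 1 without wild-type replicate 3 or hda6 replicate 2.

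With a replicate block the counts were 3 for hda6 at 12 h, 2 for sal1, 5 for msh1 and 0 for cue1 and hda6 in the other comparisons and for both interactions. In cue1 at 16 h CRC lost its call under the block (edgeR adjusted p = 0.0650). The pairing is not given by the design.

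Signs turned for values that were not called. SEP4 in msh1 (log2 0.000514) had -0.00980 with DESeq2 size factors, -0.0113 by DESeq2, -0.00421 without the filter and -5.33e-05 with only the groups compared. With 1 library left out it ranged from -0.145 to 0.272. Such ranges also crossed 0 for SEP3 (-0.480 to 0.706) and AG (-0.224 to 0.196) in cue1 at 12 h, SEP4 in sal1 (-0.0753 to 0.117), AG in cue1 at 16 h (-0.0100 to 0.966) and SEP1 in hda6 at 16 h (-0.0534 to 0.798). For the cue1 interaction they did so for SEP1 (-1.57 to 0.0841), SEP2 (-0.405 to 1.17), PI (-1.31 to 0.724) and AG (-0.0523 to 0.923), and for the hda6 interaction for PI (-0.552 to 0.732) and AG (-0.513 to 0.0204). In 7 of the 10 members no library exceeded 40 counts.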
